A study of Homo sapiens with 12 samples.

Results

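The regions described here are distal gains of acetylated H2A.Z at which no H2A.Z region was listed. They are the H2A.Zac regions that were higher in ΔTRRAP than in WT cells, did not overlap a 2-kb window centered on any gene TSS, and shared no base with any H2A.Z region, whether lost, gained or unchanged. There are 7978 such regions among 94586 H2A.Zac regions, and among 158028 regions of both marks. They were chosen by measured values, namely the authors' call of a gain in H2A.Zac and the absence of a call in H2A.Z, so direction, likelihood ratio and absence of overlap are given as a description. Of all H2A.Zac regions 26.3% were listed as gained, and of the distal ones without H2A.Z 27.9%, which is the members' own share. An absent H2A.Z region means that none was listed. It does not mean that H2A.Z was absent, and the lists give no signal level.

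K562, the cells used for ChIP-seq, is a line from a human chronic myeloid leukemia, and here its endogenous EP400 carries a degradation tag (dTAG). The endogenous protein was removed in all libraries with 500 nM dTAGV-1 for 24 h, and the cells lived on exogenous EP400 expressed in clones from the AAVS1 safe harbor locus. This was WT EP400 (the control) or ΔTRRAP EP400, which lacks the SANT and HD domains that hold TRRAP. For input, H2A.Z and H2A.Zac, 2 biological replicates of either line were sequenced, 12 libraries in all. Replicates were merged before the lines were compared, and each region carries a single value, the authors' log10 likelihood ratio between the lines. A region therefore has no spread between replicates and no test of the conditions, clonal differences cannot be told apart from the effect of the deletion, and the sequencing depth is unknown here.

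H2A.Z is a variant of histone H2A that marks promoters and enhancers. The TIP60 complex, with EP400 as its motor and scaffold, exchanges it into nucleosomes and acetylates it through the acetyltransferase KAT5, and TRRAP is the large subunit to which transcription factors such as MYC bind. Distal regions with acetylated histones are often enhancers, where the bound factors can be read in part from short sequence motifs. NF-E2 (NFE2 with a small MAF protein) and BACH1 bind an extended form of the AP-1 site and control globin and heme genes in erythroid cells, and GATA1 is the main erythroid GATA factor.

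The central 300 bp of members with high likelihood ratios, read from the hg38 sequence, show where motif letters can lie in such a region. The windows below all hold a match, whereas 60.5% of members (59.4 to 61.5%) held none of the motifs marked here. Of the 3 members with the highest ratios, those nearest to CHMP1B and DACH1 are shown, and a further one, nearest to COBL, had the highest ratio among members with a RUNX motif. Capitals mark matches on either strand of the 5 motifs named next, and matches of other motifs searched stay in lower case. The letters of AP-1 were TGANTCA, and those of NF-E2/BACH were GCTGANTCA, which contain the former. GATA was searched as AGATAA. RUNX was searched as TGTGGTT. The MYC E-box was searched as CACGTG.
DACH1 chr13:71964679-71964978 (+ strand): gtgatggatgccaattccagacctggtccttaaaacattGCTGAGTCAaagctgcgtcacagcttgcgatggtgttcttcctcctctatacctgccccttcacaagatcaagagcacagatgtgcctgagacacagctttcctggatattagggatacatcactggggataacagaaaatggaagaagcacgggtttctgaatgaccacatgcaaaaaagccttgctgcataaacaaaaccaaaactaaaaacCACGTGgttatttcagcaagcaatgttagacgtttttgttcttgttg
CHMP1B chr18:11780461-11780760 (+ strand): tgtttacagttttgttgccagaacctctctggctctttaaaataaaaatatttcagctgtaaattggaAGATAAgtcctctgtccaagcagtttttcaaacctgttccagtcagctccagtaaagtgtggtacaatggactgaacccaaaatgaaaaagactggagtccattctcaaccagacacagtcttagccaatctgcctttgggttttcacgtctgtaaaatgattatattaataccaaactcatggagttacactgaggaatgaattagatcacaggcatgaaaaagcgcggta
COBL chr7:51325434-51325733 (+ strand): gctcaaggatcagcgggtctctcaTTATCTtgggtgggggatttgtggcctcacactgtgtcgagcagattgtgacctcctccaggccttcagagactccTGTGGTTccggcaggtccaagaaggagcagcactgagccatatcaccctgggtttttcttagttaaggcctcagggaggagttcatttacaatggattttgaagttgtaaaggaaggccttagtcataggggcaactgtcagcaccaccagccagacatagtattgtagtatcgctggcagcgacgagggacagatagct
Of the marked motifs, the DACH1 window holds the extended AP-1 letters and a MYC E-box, the CHMP1B window a GATA match, and the COBL window a GATA match on the reverse strand and a RUNX match. In lower case, the CHMP1B window also holds the FOX letters TGTTTAC.

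Of the motifs searched, the NF-E2/BACH letters had the highest ratio of members to their mirror class, the 8927 distal H2A.Zac losses without H2A.Z. The 5 members with the highest ratios among those with a match are aligned on it here, with 15 bases to each side, each written on the strand that carries the match, with the matched letters in capitals.
DACH1 chr13:71964703-71964741 (+ strand): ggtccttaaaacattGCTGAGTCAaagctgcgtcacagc
CNTNAP2 chr7:147083035-147083073 (+ strand): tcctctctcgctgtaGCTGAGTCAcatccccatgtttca
NDUFA4 chr7:9797242-9797280 (+ strand): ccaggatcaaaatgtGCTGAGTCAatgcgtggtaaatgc
DACH1 chr13:72166483-72166521 (+ strand): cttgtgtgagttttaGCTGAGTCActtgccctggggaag
NIPAL4 chr5:157511679-157511717 (- strand): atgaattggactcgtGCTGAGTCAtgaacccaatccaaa
All 5 carry the same 9 letters, of which the search fixed all but the N. Their likelihood ratios are 105, 71.2, 62.5, 60.3 and 60.2 in this order. The nearest H2A.Z region was a gained one for 4 of them and an unchanged one for the NIPAL4 member. For contrast, the 3 losses with the highest ratios among those with the MYC E-box letters are nearest to SMIM30, FGFR4 and SLC2A4RG.
SMIM30 chr7:113152785-113152820 (+ strand): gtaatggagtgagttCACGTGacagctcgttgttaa
FGFR4 chr5:177089498-177089533 (+ strand): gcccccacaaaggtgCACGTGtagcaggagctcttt
SLC2A4RG chr20:63772901-63772936 (+ strand): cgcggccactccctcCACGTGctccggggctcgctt

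Within the central 300 bp, 343 of 7978 members had NF-E2/BACH letters, or 4.30% (3.88 to 4.77%, Wilson 95% interval). In the losses it was 1.52% (1.29 to 1.80%), a difference of 2.82 times, and windows of the same length 2 kb to each side of the members had 0.959% (0.819 to 1.12%). The share was 2.15% in all H2A.Zac regions and 1.36% in 35116 RefSeq promoters of the same length (GRCh38.p14). The members' share was above that of the losses on 21 of 23 chromosomes. Distal gains with H2A.Z had 3.93% (3.51 to 4.39%), an interval that overlaps the members', and distal unchanged regions without H2A.Z had 3.02% (2.73 to 3.35%). Gains with H2A.Z were thus nearer to the members than losses without H2A.Z were. Regions are not independent samples, since several can belong to 1 peak, and all intervals over regions cover counting error only.

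The share of members with NF-E2/BACH letters differed with the likelihood ratio. It was 2.32% (1.68 to 3.20%) at ratios of 3 to 5, 3.73% (3.17 to 4.38%) at 5 to 10, 6.79% (5.71 to 8.04%) at 10 to 20, and 5.17% (3.88 to 6.84%) at 20 or more. In the losses it stayed between 1.39 and 1.94% in these 4 ranges, and at ratios of 3 to 5 the intervals of both classes overlap. Members that touch no other H2A.Zac region had a share of 5.51% (4.88 to 6.22%), and those that touch another had 2.76% (2.27 to 3.36%). The members' share was above the losses' at low GC content (3.45 and 1.10%), at middle GC content (3.82 and 1.51%) and at high GC content (6.21 and 1.83%).

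The plain AP-1 letters, bound by FOS and JUN dimers, were found in 15% of members (14.2 to 15.8%) and 9.98% of losses (9.38 to 10.6%). The share was 8.92% in the members' flanks, 9.65% in all H2A.Zac regions and 7.71% in promoters. Distal gains with H2A.Z had 13.1% (12.4 to 13.9%) and distal unchanged regions without H2A.Z 12.5% (11.9 to 13.1%), both nearer to the members than the losses were. Part of this is the extended site. Members with AP-1 letters but no NF-E2/BACH match made up 10.7% (10 to 11.4%), against 8.46% (7.90 to 9.05%) of the losses. The excess of the plain letters was thus smaller than that of the extended ones.

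GATA letters were found in 22.5% of members (21.6 to 23.4%) and in 14.8% of losses (14.1 to 15.5%), and the members' share was higher on all 23 chromosomes tested, 1 to 22 and X. The flanks of the members were themselves at 18.6% (18.0 to 19.3%), so that members stood 1.21 times above their surroundings. All H2A.Zac regions had 14.6% and promoters 10.3%. Distal unchanged regions without H2A.Z were at 19.2% (18.5 to 19.9%) and distal gains with H2A.Z at 18.9% (18.0 to 19.8%), between the losses and the members. GC content moves with this result. The members' share was 29.9% at low, 21.7% at middle and 11.7% at high GC content, and that of the losses was 26.6, 13.9 and 7.21%, so the members were higher in each range. Of the members with an NF-E2/BACH match 22.4% (18.4 to 27.2%) had GATA letters too, close to the 22.5% of all members.

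The MYC E-box went the other way. Its letters were found in 2.78% of members (2.44 to 3.17%) and 9.77% of losses (9.17 to 10.4%), and the members' share was higher on 0 of 23 chromosomes. Members were below their own flanks (3.70%, 3.42 to 4.01%), below all H2A.Zac regions (5.91%) and below promoters (7.26%), while losses stood 2.41 times above their flanks. Distal gains with H2A.Z had 2.71%, and distal unchanged regions without H2A.Z had 6.24%. The order of members and losses was the same at low GC content (1.74 and 5.19%), middle GC content (3.39 and 8.68%) and high GC content (3.70 and 14.0%). The share in members was 2.77% (2.06 to 3.71%) at likelihood ratios of 3 to 5 and 2.16% (1.74 to 2.67%) at 5 to 10. It was 3.67% (2.90 to 4.64%) at 10 to 20 and 3.67% (2.61 to 5.14%) at 20 or more. At ratios of at least 10 it was 3.67% (3.02 to 4.45%), level with the flanks of all members, against 10.6% (9.68 to 11.7%) in losses. A match of letters is not a bound factor, and MYC and NF-E2 binding were not measured in these lists.

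**Figure D1:**
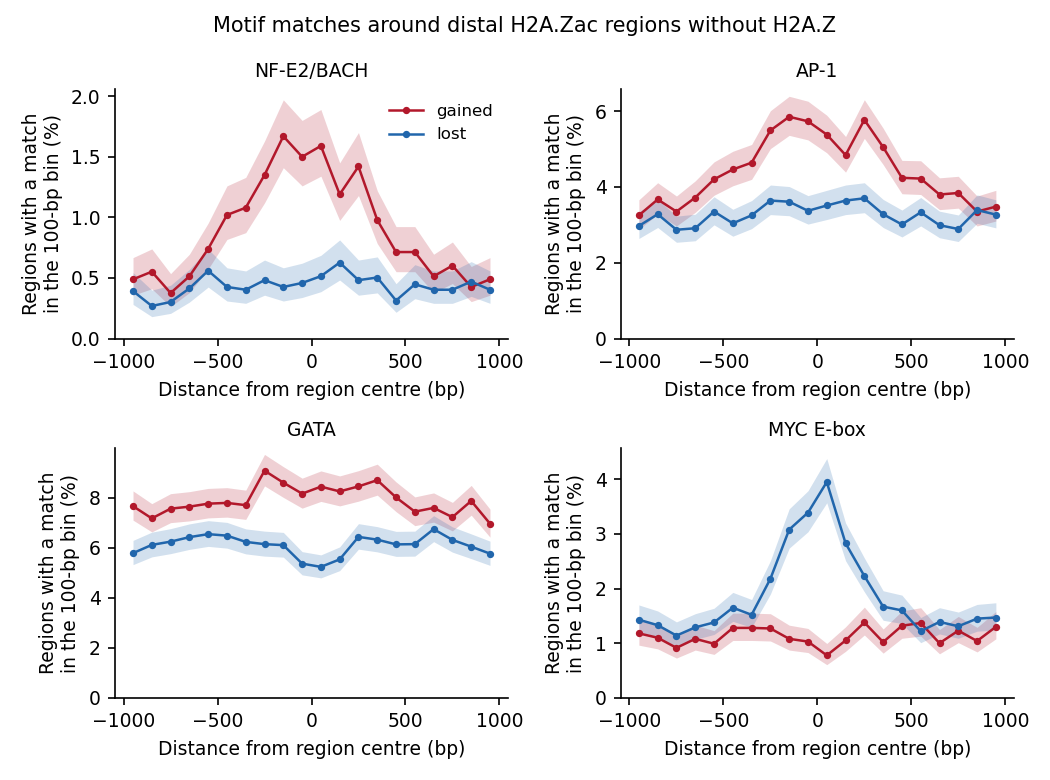
Share of regions (%) with a motif match in each 100-bp bin, by distance from the region's center (bp), for members (gained, red) and distal losses without H2A.Z (lost, blue), with Wilson 95% intervals as bands. The members' NF-E2/BACH line peaks around the center, and its band overlaps that of the losses at 900 to 1000 bp on both sides. On the right the line is below that of the losses at 800 to 900 bp (0.426 and 0.470%). The MYC E-box line peaks in the losses only among these 2 classes. The GATA line of members is above that of losses in each bin, with bands that overlap between 600 and 800 bp on the right.

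In bins of 100 bp, the members' NF-E2/BACH share was 1.5% just before and 1.59% just after the center, and 0.489% in the outermost bins at 900 to 1000 bp on both sides. In the losses the same bins held 0.459 and 0.515% around the center and 0.392 and 0.403% at the edges. The E-box share of losses was 3.39 and 3.95% around the center and 1.43 and 1.47% at the edges, while members had 1.03 and 0.777% around the center and 1.18 and 1.30% at the edges. Around the center, where losses had their peak, members were no higher than at the edges. The GATA share of members was 8.17 and 8.45% around the center and 7.67 and 6.97% at the edges, a smaller relative difference than for NF-E2/BACH. Losses had 5.37 and 5.24% around the center and 5.79 and 5.77% at the edges.

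Of 25 motifs searched, FOX letters (TGTTTAC) came second in the ratio of members to losses, with 6.63% (6.11 to 7.20%) and 4.01% (3.62 to 4.44%), and 4.37% in the members' flanks. STAT letters (TTCNNNGAA) were found in 11.8% of members (11.1 to 12.5%) and 8.52% of losses (7.96 to 9.12%), and the members' share was higher on 23 of 23 chromosomes. By GC content, STAT shares of members and losses were 15.4 and 12.3% at low, 11.3 and 8.61% at middle, and 6.78% (5.78 to 7.93%) and 5.76% (5.03 to 6.58%) at high GC content, where the intervals overlap. K562 cells carry the BCR-ABL kinase, which activates STAT5. All H2A.Zac regions had 4.66% for FOX and 8.68% for STAT. FOX letters were similarly frequent in distal gains with H2A.Z (6.79%, 6.25 to 7.39%), whose interval overlaps the members', and were found in 5.57% (5.17 to 6%) of distal unchanged regions without H2A.Z. For STAT these classes had 10.7% (10 to 11.4%) and 10.1% (9.56 to 10.7%). CTCF letters (AGGNGGC) were less frequent in members (19.2%, 18.3 to 20.1%) than in losses (25.5%, 24.6 to 26.4%), and members were higher on 1 chromosome of 23. The gap was smaller within ranges of GC content, with 8.37 and 10.2% at low, 20.4 and 21.5% at middle and 34.8 and 39.8% at high GC content, and the intervals overlap at low and middle GC content. NRF1 letters (GCGCATGC) were found in 0.363% of members and 0.784% of losses. RUNX (5.74 and 6.22%), C/EBP (TTGCNNAA, 13.1 and 12.8%), KLF (CCNCACCC, 11.8 and 12.9%), SP (GGGCGGG, 3.84 and 4.19%) and NF-kB (GGGANTTCC, 1.91 and 1.79%) shares had overlapping intervals in members and losses. An ETS form (CAGGAAG) was at 13.4% in members and 9.11% in their flanks, but at 15.9% in losses.

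**Figure D2:**
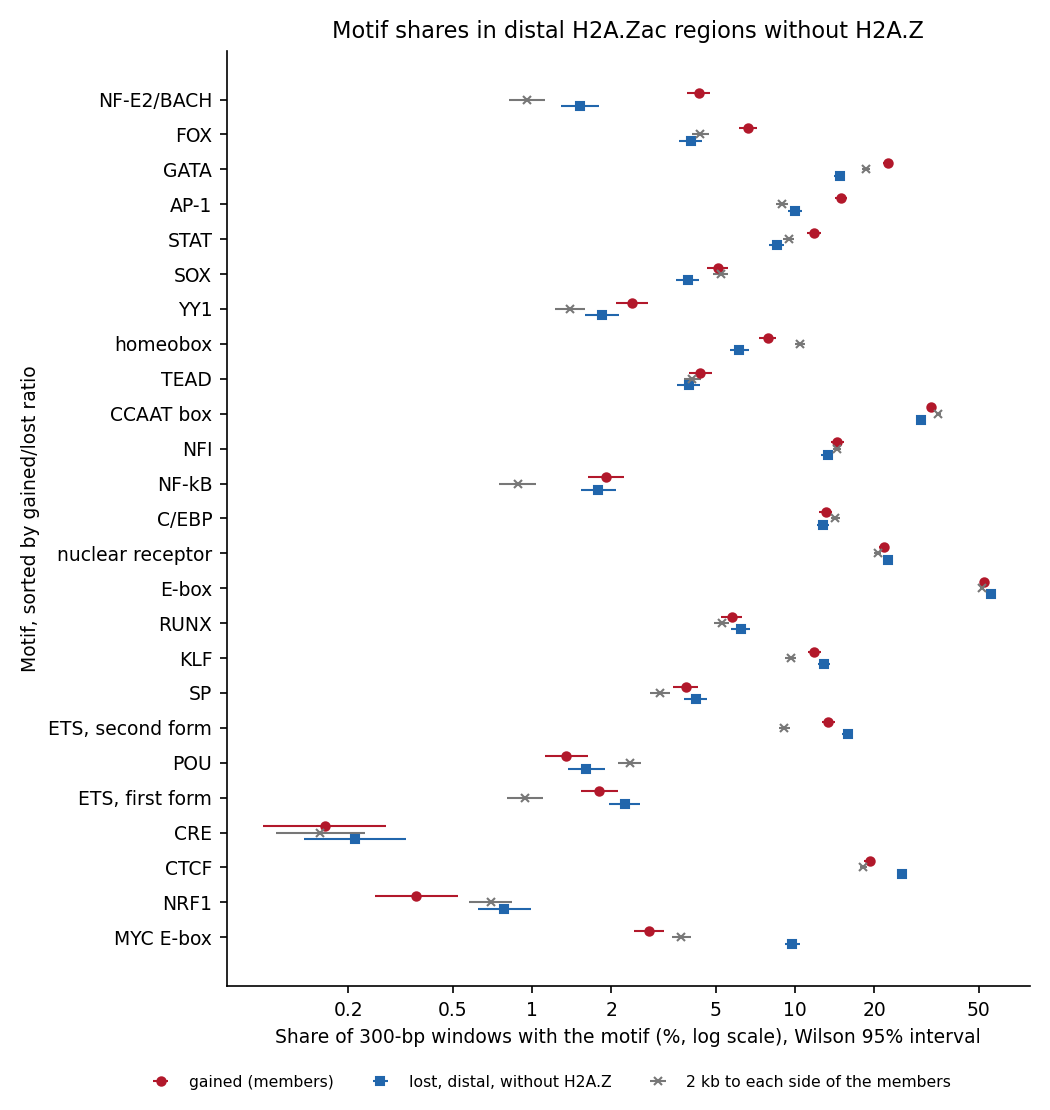
Share of 300-bp windows (%, log axis) with each of 25 motifs, for members (red), distal losses without H2A.Z (blue) and windows 2 kb to each side of the members (gray), with Wilson 95% intervals, sorted by the ratio of members to losses. NF-E2/BACH stands at the top with 4.30 and 1.52%, and the MYC E-box at the bottom with 2.78 and 9.77%.

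The likelihood ratios of members had a median of 7.58 and ranged from 3.12 to 108, and 2669 members (33.5%) had a ratio of at least 10. Just inside the threshold of 3, the lowest members were at 3.12, 3.14 and 3.22, and just outside it the highest distal unchanged regions without H2A.Z were at 2.87, 2.87 and 2.84. At the other limits of the rule, 408 members lay within 1.5 kb of a TSS, while 1723 gained regions without H2A.Z lay inside the TSS window. There were 227 members within 100 bp of an H2A.Z region, while 287 distal gains shared 100 bp or less with one. The members' median width was 660 bp (250 to 7173 bp), close to that of the losses (634 bp). Their GC content was lower, with a median of 45.3% (45.0 to 45.7%) against 48.7% (48.7 to 49.0%) in the losses and 50.7% in all H2A.Zac regions.

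Because bdgdiff assigns classes along the pileup, a gained region can be the shoulder of a peak whose rest is unchanged. Of the members, 4464 (56.0%, 54.9 to 57.0%) touched no other H2A.Zac region, and the other 3514 were all joined to a chain of regions with an unchanged one. The free-standing members were wider (median 819 against 507 bp) and had higher likelihood ratios (10.4 against 5.77). Among the losses 69.7% (68.8 to 70.7%) stood free, and among the distal gains with H2A.Z 37.2% (36.1 to 38.3%). A chain that also held an H2A.Z region took in 832 members (10.4%), for which H2A.Z was listed elsewhere in the same stretch.

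Members lay more often inside genes than losses did. The center of 64.3% of members (63.2 to 65.3%) fell in an intron, of 6.53% in an exon and of 29.2% (28.2 to 30.2%) between genes. The losses had 50.3% (49.3 to 51.4%) in introns and 42.8% (41.8 to 43.8%) between genes, and distal gains with H2A.Z had 54.4% in introns. Distal unchanged regions without H2A.Z were closer to the members, with 59.4% (58.6 to 60.3%) in introns, and all H2A.Zac regions had 48.1%. Protein-coding genes held 56.9% of members and 41.8% of losses. Members were at the same time farther from TSSs than losses were. Their median distance to the nearest TSS was 14464 bp (13865 to 14971 bp), against 11464 bp (11067 to 11854 bp) for losses, and to the nearest protein-coding TSS 41552 bp against 29742 bp. A protein-coding TSS was over 100 kb away for 28.0% of members and 22.3% of losses. Distal gains with H2A.Z resembled the members here, with a median of 13487 bp (13006 to 14034 bp) to the nearest TSS, an interval that overlaps the members', and 27.4% over 100 kb from a protein-coding TSS.

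By the rule no H2A.Z region overlaps a member, but many were near. The nearest H2A.Z region lay at a median of 9294 bp (8851 to 9746 bp) from a member and 5480 bp (5201 to 5731 bp) from a loss. Within 10 kb there was one for 51.5% of members (50.4 to 52.6%) and 63.4% of losses (62.4 to 64.4%). For 526 members (6.59%, 6.07 to 7.16%) and 4.02% of losses (3.63 to 4.45%) there was none within 100 kb. Distal unchanged regions without H2A.Z lay between these classes, with a median of 6558 bp (6290 to 6861 bp). Of them 58.6% had an H2A.Z region within 10 kb and 5.17% had none within 100 kb. Members were thus farther than both classes from the nearest H2A.Z region, with gained, lost and unchanged ones pooled. The distance to the nearest region of each class was not compared.

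Where the nearest H2A.Z region had changed, it had mostly changed in the members' own direction. It was gained for 21.3% of members (20.4 to 22.2%), lost for 6.03% (5.53 to 6.57%) and unchanged for 72.6%. At likelihood ratios of at least 10 it was gained for 33.3% (31.6 to 35.2%). For losses it was gained in 5.96%, lost in 25.5% and unchanged in 68.5%, and for distal unchanged regions without H2A.Z it was gained in 12.0% and lost in 12.3%. Of the members within 1 kb of an H2A.Z region, 17.4% had a gained and 1.27% a lost one nearest. Between 1 and 10 kb this was 23.1 and 6.38%, between 10 and 50 kb 21.4 and 7.64%, and between 50 and 100 kb 15.6 and 7.19%. Beyond 100 kb it was 29.3% (25.6 to 33.4%) and 6.76% (4.90 to 9.25%). Gained H2A.Z was thus the more frequent changed neighbor of members in each range. Within 1 kb this also held for distal unchanged regions without H2A.Z, with 15.5% gained (14.1 to 17.1%, overlapping the members' interval of 15.4 to 19.5%) and 9.79% lost. In their farther ranges, in the same order, gained and lost were 9.66 and 14.3%, 13.1 and 12.2%, 11.3 and 11.1%, and 12.2 and 8.17%, so gained was above lost in 4 of 5 ranges here too, by less than in members, with overlapping intervals in the last 3. Neighboring members can share the same H2A.Z region, and both marks come from the same pair of clones.

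**Figure D3:**
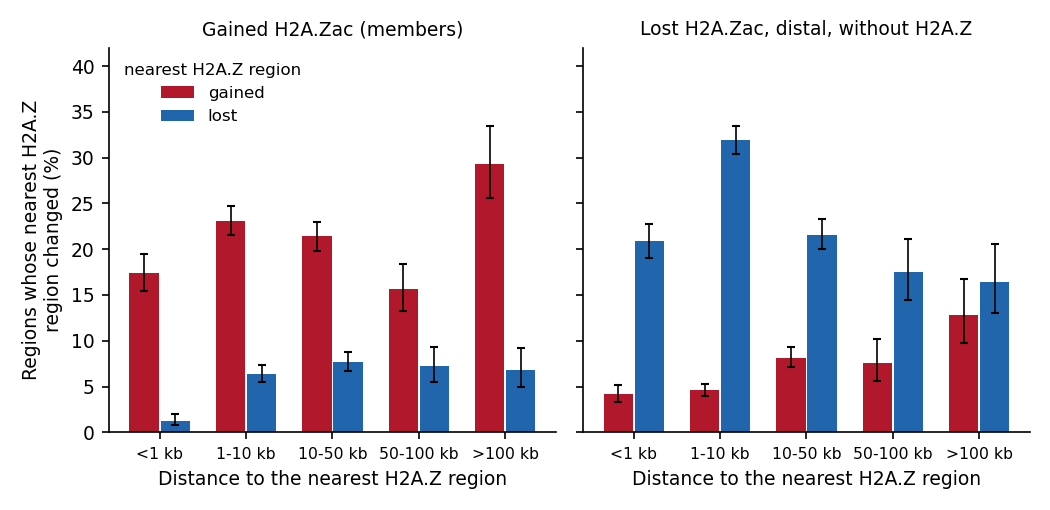
Share of regions (%) whose nearest H2A.Z region was gained (red) or lost (blue), by the distance to it, for members (left) and for distal losses without H2A.Z (right), with Wilson 95% intervals. Red is above blue in all 5 distance ranges on the left and under it in all 5 on the right, where the intervals overlap in the range over 100 kb.

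Among changed distal H2A.Zac regions without H2A.Z the gained share was 47.2% (46.4 to 47.9%), and 42.1% (41.4 to 42.9%) among those with H2A.Z. Leaving out 1 chromosome at a time, the former stayed between 46.8 and 47.7%. The rule used this direction, so the shares describe the members' weight on each chromosome. Chromosome 20 had 122 members and 317 losses (27.8% gained, 23.8 to 32.2%), and chromosome 19 had 195 and 379 (34.0%, 30.2 to 37.9%). At the other end were chromosome 18 with 165 and 138 (54.5%, 48.8 to 60.0%) and chromosome 13 with 192 and 169 (53.2%, 48.0 to 58.3%). The median over the 23 chromosomes was 47.8%.

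**Figure D4:**
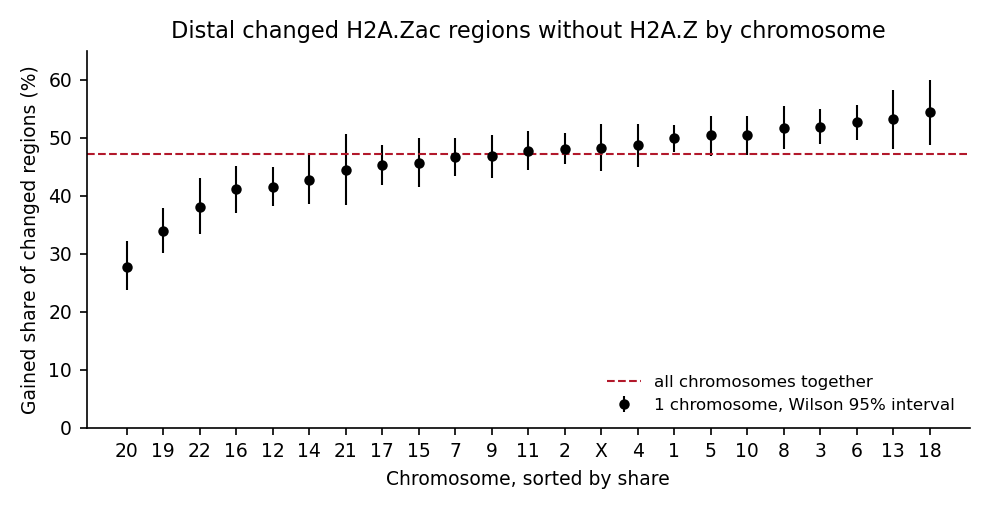
Gained share (%) of changed distal H2A.Zac regions without H2A.Z on each chromosome, sorted by share, with Wilson 95% intervals; the dashed line is the share over all chromosomes, 47.2%. Chromosomes 20, 19 and 22 lie lowest at 27.8, 34.0 and 38.1%, and chromosome 18 highest at 54.5%.

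A stretch on chromosome 1, taken as satellite DNA from its position and the CENP-B box alone, stands apart. No repeat annotation was used. Between 121.5 and 125.5 Mb there were 44 members and 0 distal losses without H2A.Z. Their median likelihood ratio was 44.7, against 7.58 in all members, while their median width was 340 bp. Of all H2A.Zac regions in the stretch, 47 were gained, 1 lost and 3 unchanged. The CENP-B box, a motif of alpha satellite at centromeres, was matched in 34 of these 44 members. It was matched in 36 of all 7978 members, 3 of 8927 losses and 4 of 7462 distal gains with H2A.Z. Among all 94586 H2A.Zac regions 166 (0.176%) had a match, so most matches lay outside the members. Reads from repeats of this kind cannot be placed reliably in the assembly. Another 59 members (0.740%) were on unplaced or unlocalized contigs, against 0.280% of losses, 0.388% of all H2A.Zac regions and 1.22% of distal gains with H2A.Z. The motif shares with and without these regions are close, as NF-E2/BACH letters were found in 4.34% of members on chromosomes 1 to 22 and X outside this stretch.

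Members often lay near each other. Another member lay within 10 kb for 41.9% of them (40.8 to 42.9%), and another loss for 37.5% of losses (36.6 to 38.6%). Distal unchanged regions without H2A.Z were above both, at 47.5% (46.6 to 48.4%). The members' share depends on how regions are split and selected, as it was 19.5% after regions within 1 kb were merged and 16.5% at likelihood ratios of at least 10. Joined at gaps of up to 50 kb, members formed 4688 runs, of which 2973 were single regions and 187 held 5 or more, together 1226 members. The largest run held 20 members in 98.3 kb on chromosome X, with AMELX as nearest protein-coding gene and inside the body of ARHGAP6, a GTPase-activating protein. It held 0 losses without H2A.Z and 20 unchanged regions, and its members' ratios were low, between 3.59 and 12.8. Next came a run of 14 members near CLEC3B and CDCP1 on chromosome 3 and runs of 13 at FNDC3B (chromosome 3), GSE1 (chromosome 16) and NXPH2 (chromosome 2), each with 0 losses, while a further run of 13 at ASPH held 4. In the order named, these runs held 31, 1, 4, 9 and 19 unchanged regions. The FNDC3B run differed from the others in its ratios, with a median of 15.5 against 5.14 to 8.84, and in its 1 unchanged region.

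Counted by gene body, 142 protein-coding genes held at least 5 members and 18 at least 10, of which 8 held no loss without H2A.Z. Overlapping gene records were counted separately, so these counts exceed the number of separate places. HBG2, HBE1 and ENSG00000239920, which hold the same 11 members and 0 losses, are all among the 8. Over the whole genome, members were 47.2% of changed distal regions without H2A.Z and 27.9% of all distal regions without H2A.Z. ARHGAP6 had 24 members and 5 losses, GSE1 (a protein of the CoREST corepressor complex) 17 and 10, ASIC2 (an acid-sensing ion channel) 16 and 2, and SMYD3 (a lysine methyltransferase) 14 and 1. FNDC3B (a fibronectin type III domain protein) had 14 members with ratios of 5.52 to 43.8, 0 losses, and 4 H2A.Z regions, all of them gained. FOXP1 (a forkhead transcription factor) had 13 members and 2 losses, which it shares with the overlapping record ENSG00000285708, and ENSG00000250349 on chromosome X had 13 members with a median ratio of 16.2 and 6 losses. NCAM2, a neural cell adhesion molecule, held 12 members, 0 losses and 6 H2A.Z regions. ZFPM2, a cofactor of GATA factors, had 11 members and 2 losses amid 50 H2A.Z regions, of which 7 were gained and 17 lost. BCOR (a BCL6 corepressor) had 11 members and 1 loss, and FGF13 (a fibroblast growth factor homolog) 10 and 0. CPED1, CUBN and SLC22A23 also had 10 members each, with 0, 1 and 0 losses. Unchanged regions without H2A.Z were at least as many as members in ARHGAP6 (24), ZFPM2 (20), GSE1 (19), SMYD3 (17), BCOR (16) and CPED1 (10). They were fewer in ASIC2 (11), FOXP1 (10), ENSG00000250349 (10), CUBN (8), NCAM2 (7), SLC22A23 (5), FGF13 (4) and FNDC3B (1). Long genes hold more regions of any class, and ASIC2 and ZFPM2 each span over 1 Mb.

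The β-globin locus held a compact group of members. Upstream of HBE1, the embryonic β-like globin gene, 9 members lay between chr11:5272536 and chr11:5287733, 3.12 to 17.6 kb from the start of the gene's short transcript at 5269945. The β-globin locus control region, the set of erythroid enhancers that drives these genes, lies upstream of HBE1. The ratios of the 9 members were moderate, from 3.98 to 9.52, and the nearest H2A.Z region was at least 38.0 kb away and unchanged. Over their full widths, 4 of these members held GATA letters, 5 held AP-1 letters and 1 held NF-E2/BACH letters. Of the 4 lost H2A.Zac regions of the locus, 2 held GATA letters, 2 AP-1 letters and 1 NF-E2/BACH letters, and the counts are too small to set the groups apart. Interleaved with the 9 members were 3 unchanged regions, and the unchanged region that starts at chr11:5287782, just past the last member, held GATA, AP-1 and NF-E2/BACH letters. The members' match is shown with 15 bases to each side.
HBE1 upstream chr11:5284894-5284932 (+ strand): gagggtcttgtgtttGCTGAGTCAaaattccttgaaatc
The 4 lost H2A.Zac regions of the locus lay on the other side of HBE1, 23 to 31.1 kb downstream of that start, with ratios of 5.19 to 13.4. A gained region that is not a member lay on that side too, 45.4 kb downstream (ratio 7.14). Another gained non-member lay 21.2 kb upstream (7.74). Because the annotated records of HBG2, HBE1 and ENSG00000239920 reach far upstream, the same 11 members count in all 3 gene bodies, and 2 of these 11 lie outside the group, at 5412329 and 5412890.

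The 10 members with the highest likelihood ratios, from 85.2 to 108, all touched no other H2A.Zac region. Of these 10, 7 lay between genes and 3 in introns. The highest, with a ratio of 108, lay 112 kb upstream of COX7C, a subunit of cytochrome c oxidase. The next lay 70.8 kb upstream of CHMP1B, an ESCRT-III protein, with a ratio of 106. DACH1, a transcription factor gene of the Dachshund family, followed with 105, and 2 members near DTNA (dystrobrevin alpha) had 98.8 and 85.5. The rest were nearest to NID1 (a basement membrane protein, 98.7), KLF12 (a zinc finger repressor, 97.3), NDUFA4 (95.4), NOVA1 (a neuronal splicing factor, 86.1) and BCHE (butyrylcholinesterase, 85.2). The NDUFA4 and NOVA1 members lay 793 and 829 kb from those genes, so the names mark a place and no target. For 7 of these 10 the nearest H2A.Z region was gained.

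DACH1 had many members with high ratios. It was the nearest protein-coding gene of 15 members with ratios from 16.9 to 105 and a median of 60.3, against 7.58 in all members, and of 0 losses without H2A.Z. The gene lies on the reverse strand with its TSS at chr13:71867204. The members ranged from 299 kb upstream to 512 kb downstream of it, with 10 upstream and 5 downstream, of which 4 lay in introns. Within 550 kb of the TSS there were 19 gained H2A.Zac regions, 0 lost and 0 unchanged, and only 6 H2A.Z regions, 5 of them gained. The likelihood ratios of those gained H2A.Z regions, from 5.58 to 21.0, were lower than those of 14 of the 15 members. The ratio grows with depth as well as with the change, and the depth of the marks is unknown here. Ratios of the marks therefore cannot be set against each other as sizes of change. CCND1 had 0 members and 1 loss without H2A.Z nearest, and TERT had 0 of either.

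**Figure D5:**
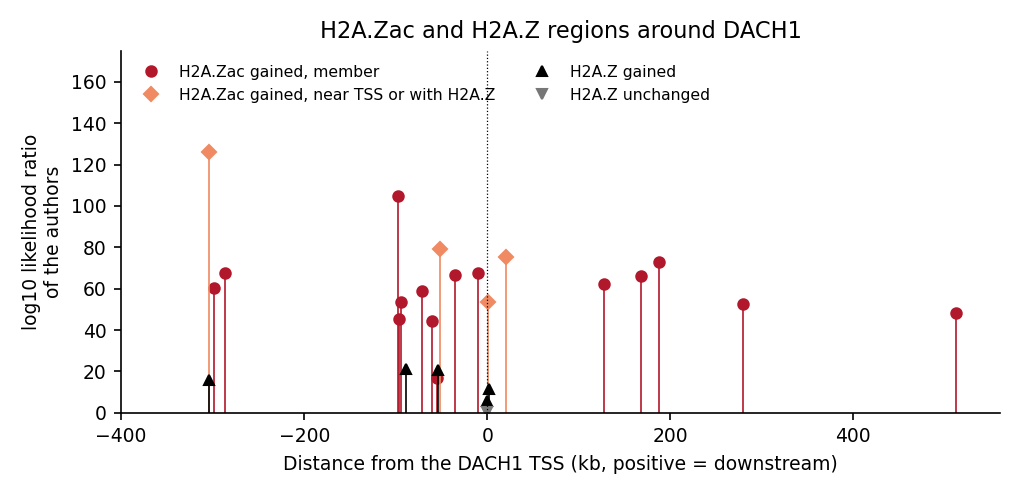
H2A.Zac and H2A.Z regions within 550 kb of the DACH1 TSS, by distance from it (kb, positive is downstream) and the authors' log10 likelihood ratio; members are red circles, other gained H2A.Zac regions orange diamonds, and H2A.Z regions triangles. The 15 members lie on both sides of the TSS at ratios of 16.9 to 105, and the H2A.Z regions stay at or under 21.0.

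Members were counted in lists of genes by function, by nearest protein-coding TSS. The background for the gained shares is the 47.2% given above, and no background was counted for the number of genes with members. Of 21 erythroid genes 7 had members, 15 in all beside 27 losses (35.7% gained). TAL1 (an erythroid transcription factor) and MYB had 3 members each, beside 0 and 9 losses, while TFRC, the transferrin receptor, had 0 members and 8 losses. The globin group above is not in this count, since no listed globin gene has the nearest annotated start. Of 15 megakaryocyte genes 4 had 13 members beside 11 losses in the whole list (54.2% gained), and the transcription factor genes MEIS1, with ratios up to 50.8 and 0 losses, and RUNX1, with ratios up to 8.86 and 2 losses, had 5 each. Counted by gene body instead, RUNX1 held 5 members beside 16 losses, and 28 of its 77 H2A.Z regions were lost. Of 9 myeloid and progenitor genes 3 had 5 members, beside 13 losses in the list (27.8% gained). Among 19 genes of neural adhesion and guidance, 5 had 25 members beside 13 losses (65.8% gained). PCDH9, a protocadherin, had 14 members and 8 losses, and CADM2, an adhesion molecule of the immunoglobulin family, 5 and 3. Most PCDH9 members lay between genes, some of them 1003 to 1161 kb downstream of its TSS and others about as far upstream. For these the name marks a place and no target. CNTNAP2, a neurexin relative, had 3 members with ratios of 31.4 to 71.2. By gene body it held 5, with ratios of 13.7 to 76.0. Of 12 genes of the retinal determination network (the DACH and EYA families and their homeobox partners) DACH1 alone had members, 15 of them beside 2 losses in the list (88.2% gained). Of 11 genes of the AP-1 family 4 had 17 members, as many as there were losses (50% gained). JUN had 8 members and 0 losses, MAFF (a small MAF protein) 6 and 3, and FOS 0 and 9. Distal unchanged regions without H2A.Z numbered 13 at JUN, 9 at MAFF and 0 at FOS. No JUN member lay nearer than 29.6 kb to its TSS. In the 6 lists, in the order named, there were 30, 13, 13, 15, 4 and 29 such unchanged regions. These gained shares lie on both sides of the background, from 27.8 to 88.2%, and were not tested against it. Neighboring regions at 1 gene are not independent, and the highest share rests on DACH1 alone.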

How the data were processed

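The study's submitters aligned reads to hg38 with Bowtie2 2.4.5 and called peaks with MACS2 2.2.7.1, with bedtools 2.30.0 and deepTools 3.5.1 also named in the submitters' processing notes. The authors compared WT and ΔTRRAP with bdgdiff, giving it the effective depths from MACS2 (regions of at least 250 bp), and kept a region when 25% of it or more was in replicate-reproducible peaks (IDR cutoff 0.05). The deposited score of a region is their log10 likelihood ratio (cutoff 3). It grows with depth and is not a fold change, and its relation to width was not tested. The 6 lists carry all of this and were read as deposited.

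Members were found by overlap with the H2A.Z lists and with GENCODE release 44 gene TSSs (the study used release 32). A member shared no base with an H2A.Z region or with the 1 kb to each side of a TSS. Motif letters were searched on both strands of the central 300 bp. GC ranges were set at 43.3 and 51.0%. Intervals are Wilson 95% intervals for shares and order-statistic intervals for medians. Per-chromosome comparisons needed 50 regions of each class. Python 3.11.15, numpy 2.4.6, pandas 2.3.3, scipy 1.17.1, pysam 0.24.0 and matplotlib 3.10.9 were used. Covered lengths and distances of 94586 regions were checked against bedtools 2.31.1 with 0 differences, and the motif search was tested on simulated data.

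The members, motifs and gene lists were chosen with earlier results of these data known. Genes named are the 15 with most members in the body (4 genes tied for the last place, which fell to the highest ratio), the nearest genes of the 10 members with the highest ratio and of the 5 largest runs, listed genes with at least 5 members, and DACH1, CCND1 and TERT, which the study names. Whole windows were chosen for the 3 members with the highest ratio and for the highest one with an AP-1, a GATA and a RUNX match, and 1 of them, that of the highest ratio, which holds none of the marked letters, is not reported here. The aligned matches, the globin group and the other genes named were chosen after their values were seen. Alternatives changed the likelihood ratio, TSS, overlap, merging, width, chromosome and window settings. Expression, signal tracks and input were not analysed here.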

Additional observations from a re-analysis of the deposited data

How the results depend on the processing

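No paired analysis was possible because the lists merge the replicates, and for the same reason no replicate could be left out. In 64 of 114 recalculations, not counting those of the NF-E2/BACH and MYC E-box shares, the value stayed within the interval of the reported one (counts within 1.5 times), and the cause of the other 50 shifts was not tested. At a likelihood ratio of at least 10 there were 2669 members, with a gained share of 42.7%, AP-1 in 18.0%, GATA in 21.4%, 60.2% in introns, a median TSS distance of 18316 bp, GC content of 46.0%, another member within 10 kb for 16.5%, and gained H2A.Z nearest for 33.3%. A ratio cutoff of 5 gave 46.4% gained, AP-1 15.9%, TSS distance 15174 bp, another member within 10 kb 34.4% and gained H2A.Z nearest 22.9%. Regions of at least 500 bp gave 5048 members, AP-1 in 17.6%, GATA in 23.8%, 15636 bp, 29.6% and 23.7% for the same measures. With only regions that touch no other H2A.Zac region, an alternative chosen after seeing the data, there were 4464 members, a gained share of 41.8%, AP-1 in 16.1%, GATA in 21.1%, 16262 bp, 26.2% and 26.4%. A TSS window of 5 kb to each side gave a gained share of 48.0%, 21568 bp and gained H2A.Z nearest for 22.3%. TSSs of every transcript left 7036 of the 7978 members, so the others lay within 1 kb of a further annotated transcript start. This setting gave 46.1% gained, 62.7% in introns, 10050 bp and 40.5% with another member within 10 kb. Protein-coding TSSs gave 40781 bp and 43.4%. Requiring no H2A.Z region within 1 kb gave 48.1% gained, AP-1 in 15.8%, 15643 bp and 40.4%. Merging regions within 1 kb gave 45.3%, 17.6%, 15631 bp and 19.5%. Without chromosomes 19 and 20 the gained share was 48.2%. Searching the central 500 bp gave AP-1 in 24.2% and GATA in 34.5%, and 200 bp gave 10.3 and 15.5%. Within 50 kb 62.7% had another member.

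Over 14 alternatives, the NF-E2/BACH share was between 2.88 and 6.92% in members and between 0.952 and 2.42% in losses, and that of the MYC E-box between 1.73 and 5.16% in members and between 7.0 and 14.3% in losses. The members' NF-E2/BACH share left its reported interval in 8 of the 14. The lowest and highest of each come from searching 200 and 500 bp. The lists give no depth and no value per replicate, so how far a class would change in another pair of cultures or clones is not known.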
